A study of Mus musculus with 20 samples.

Results

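The 7 genes described here, Elf5, Ascl2, Rhox5, Trap1a, Mageb16, Tpbpa and Prl8a2, are known from trophoblast, the embryo's part of the placenta, and from decidua, the maternal lining around it. They were found by name: a probe set (the group of array probes for a transcript) belonged to a member if it was annotated with that gene symbol alone. This gave 12 probe sets for the 7 genes, out of 34945 for 18193 genes on the array. Elf5 had 2 probe sets, Ascl2 and Tpbpa had 3 each, and the other genes had 1 each. RNA came from wild type C57BL/6 mice kept specific-pathogen free. Each sample pooled RNA of several embryos of mixed sex, taken whole but for the amnion, at 8 stages from E7.5 to E18.5, where the number is the embryonic day: daily up to E10.5 and then every other day. The 4 stages up to E10.5 had 3 arrays each and the 4 later stages had 2 each, 20 in all. The labels call these biological replications. They do not say how much ectoplacental cone, yolk sac or decidua stayed with an embryo.

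Trophoblast starts as the outer layer of the blastocyst. At the gastrulation stages a stem cell pool lies in the extraembryonic ectoderm, under the ectoplacental cone, whose cells become spongiotrophoblast and giant cells. Around it the uterine stroma turns into decidua. Elf5 and Ascl2 encode transcription factors of the early trophoblast: ELF5 belongs to the circuit that keeps trophoblast stem cells, and ASCL2 is needed for spongiotrophoblast. Rhox5 encodes a homeobox protein made in extraembryonic tissues, Trap1a the tumour rejection antigen P1A, which is also made in trophoblast, and Mageb16 a protein of the MAGE family. Tpbpa marks the ectoplacental cone and spongiotrophoblast, and Prl8a2 encodes a prolactin-family hormone of the decidua.

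Values are MAS5 signals, one per probe set and array, on a linear scale. A gene is represented by its probe set with the highest mean, and signals are not compared between genes, since probes differ in brightness. A change is given on the scale of log2(signal + 25.9), which understates changes of dim genes, with its SE from a limma fit over all 20 arrays. The 2 words "rose" and "fell" stand for a call: a change of at least 2-fold with a Benjamini-Hochberg adjusted p below 0.05 over the 14044 genes tested. The array median signal was 67.2 to 91.1 on the 12 arrays up to E10.5 and 156 to 178 on the 8 later ones, and a labelling control, the middle probe set of the dap spike, gave 50.8 to 119 and 1812 to 2571. No stage lies in both sets of arrays, so between E10.5 and E12.5 stage and array set cannot be told apart. Fewer cells of a type and less RNA per cell cannot be told apart in whole-embryo RNA either.

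Of the 7 genes, 6 could be tested and Tpbpa could not, since it was above the array median on only 1 array. Ascl2 and Mageb16 were above it on the 3 arrays of E7.5 and on 1 array of E8.5 only. These genes were thus tested because of the stage where they were high. From E7.5 to E8.5, 5 of the 6 tested fell, Elf5, Ascl2, Mageb16, Rhox5 and Trap1a, where 4.93% of all genes tested fell. From E8.5 to E9.5, 5 of 6 fell, now Prl8a2 in place of Elf5, against 1.68% of all genes. From E9.5 to E10.5, 1 of 6 fell, Trap1a, against 0.513%. All 6 tested were lower at E10.5 than at E7.5, a fall called in 7.49% of all genes. No member rose in any of these comparisons. The members were chosen with earlier results of these data known, so the shares of all genes are background and not a test of the members. The median change of the 6 was -3.79 at the first step and -1.95 at the second, and over all genes it was 0.03 and 0.01.

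**Figure D1:**
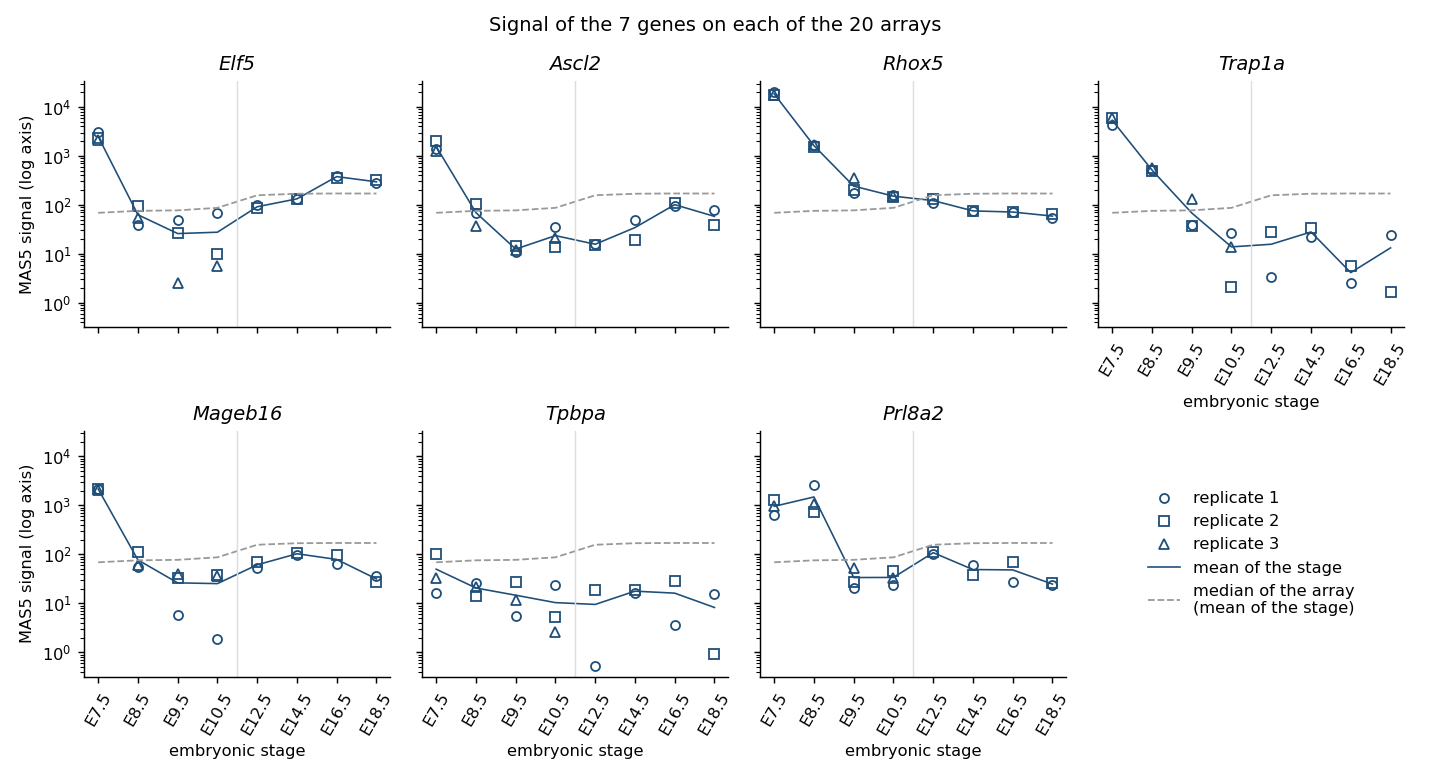
Signal of the 7 genes (log axis) on each of the 20 arrays by embryonic stage, with a symbol for each replicate, a solid line through the stage means and a dashed line for the array median. Elf5, Ascl2 and Mageb16 are near or under the dashed line from E8.5 to E14.5 and Elf5 above it afterwards, Rhox5 and Trap1a step down over 2 stages, Prl8a2 stays high at E8.5, and Tpbpa is above the line on 1 array.

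Elf5 was high at E7.5 only among the early stages. Its signal was 3025, 2345 and 2092 on the 3 arrays of E7.5, and 38.8, 94.4 and 55.1 at E8.5. The ranges were far apart, and 2.52% of the E7.5 mean was left. The change was -4.86 ± 0.36 (SE; limma adjusted p = 1.1e-09), rank 2 from the largest fall among the genes tested. At E9.5 the arrays read 49.2, 26.0 and 2.58 and at E10.5 67.5, 9.70 and 5.65, values in the dim range of the array where the replicates overlap between stages. The second step of -0.84 ± 0.36 was not called (limma adjusted p = 0.12), and without E9.5 replicate 1 it was called at -1.16 (limma adjusted p = 0.042). The other Elf5 probe set changed by -2.96 at the first step and 0.24 at the second, so both had their drop before E8.5.

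Ascl2 had a like course. It gave 1413, 1975 and 1266 at E7.5 and 67.4, 104 and 36.4 at E8.5, again without overlap. The probe set read here may also match related transcripts, as its suffix _s_at marks. At E9.5 it gave 10.7, 14.6 and 12.2, below every array of E8.5. The first step was -4.09 ± 0.30 (SE; limma adjusted p = 9.5e-10), and 4.47% of the E7.5 mean was left. The second was -1.25 ± 0.30 (limma adjusted p = 0.0053), called with all arrays but under 2-fold without E8.5 replicate 2 (-0.99). At E10.5 the signals of 35.9, 13.7 and 21.1 were below every array of E8.5, and the lowest of them lay within the range of E9.5. The other 2 Ascl2 probe sets changed by -4.83 and -3.88 at the first step and by -0.47 and -0.91 at the second. With the mean of all its probe sets the second step was -0.88, and with a pseudocount 4 times larger -0.56, both under 2-fold.

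Other genes of the extraembryonic ectoderm and of trophoblast stem cells were split. Of 13 in a list of them, 4 fell at the first step, 0 rose and 9 were not called. The 4 were Bmp8b, a signal from this tissue, and the transcription factors Eomes, Tfap2c and Tead4. Eomes gave 451, 535 and 669 at E7.5 and 56.3 or less on all arrays of E8.5, a change of -3.33 ± 0.25. Bmp8b changed by -3.35 ± 0.37, Tfap2c by -2.69 ± 0.21 and Tead4 by -1.38 ± 0.36. Cdx2, a homeobox gene of trophoblast stem cells and also of the tail end of the embryo, was the only one of the 13 to fall at the second step. It gave 1532, 1192 and 1250 at E8.5 and 250, 346 and 299 at E9.5. The median change of the 13 at the first step was -0.37.

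Rhox5 and Trap1a fell at both steps, and by a similar amount. Rhox5 gave 19957, 17357 and 17898 at E7.5, 1688, 1503 and 1668 at E8.5, and 174, 204 and 346 at E9.5. Its 3 arrays of E7.5 were within 1.15-fold of each other and the stages did not overlap. The steps were -3.48 ± 0.16 (SE; limma adjusted p = 1.3e-12) and -2.67 ± 0.16 (limma adjusted p = 4.9e-10). At E10.5 it gave 157, 144 and 151, all below E9.5, but the change of -0.55 ± 0.16 was under 2-fold (limma adjusted p = 0.023). It was still above the median of all 3 arrays at E10.5, and from E14.5 on it gave 54.2 to 75.9, below the median.

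Trap1a gave 4225, 5918 and 5872 at E7.5, 504, 480 and 558 at E8.5, and 38.1, 37.6 and 129 at E9.5. Each stage lay below the one before it. The steps were -3.30 ± 0.34 (SE; limma adjusted p = 1.3e-07) and -2.65 ± 0.34 (limma adjusted p = 9.6e-06). At E10.5 it gave 26.1, 2.06 and 13.5, a further fall of -1.16 ± 0.34 (limma adjusted p = 0.020). This last step was not called without E9.5 replicate 3 (-0.73, adjusted p = 0.13) or without E10.5 replicate 2 (-0.92, adjusted p = 0.098), nor in a fit of those stages alone (adjusted p = 0.094) or with the larger pseudocount (-0.51). From E12.5 to E18.5 no array gave more than 34.1.

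Mageb16 had the closest replicates of the 7 at E7.5, with 2202, 2178 and 2103, and rank 3 from the largest fall at the first step, next after Elf5. It gave 55.0, 114 and 61.6 at E8.5, or 3.56% of the E7.5 mean, a change of -4.46 ± 0.32 (SE; limma adjusted p = 8.3e-10). E9.5 gave 5.85, 33.4 and 39.2, below E8.5 on all arrays, and E10.5 gave 1.86, 37.1 and 36.8, among the values of E9.5. The second step of -1.01 ± 0.32 was just past the 2-fold limit (limma adjusted p = 0.035). It was not called without E8.5 replicate 2 (-0.76, adjusted p = 0.16), E8.5 replicate 3 (-1.10, adjusted p = 0.0501) or E9.5 replicate 1 (-0.68, adjusted p = 0.18), nor in a fit of those stages alone (adjusted p = 0.11) or with a pseudocount 4 times smaller (adjusted p = 0.073) or larger (-0.47).

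Rhox5, Trap1a and Mageb16 are all on the X chromosome. The 250 bases before the transcript start of these 3 X-linked genes are shown because all 3 fell at both steps. Ascl2, on chromosome 7, fell at both steps too and is not shown. The bases of Tpbpa, a placental gene with little signal, stand beside those of the 3. They are RefSeq sequences of build GRCm38.p6, at chrX:37754358-37754607 (plus strand) for Rhox5, chrX:139333433-139333682 (plus) for Trap1a, chrX:79671436-79671685 (minus) for Mageb16 and chr13:60941937-60942186 (minus) for Tpbpa. Capitals mark the CCAAT box and the octamer ATGCAAAT, each searched on both strands and chosen after the sequences were read; neighbouring matches of 1 motif can overlap.
Rhox5: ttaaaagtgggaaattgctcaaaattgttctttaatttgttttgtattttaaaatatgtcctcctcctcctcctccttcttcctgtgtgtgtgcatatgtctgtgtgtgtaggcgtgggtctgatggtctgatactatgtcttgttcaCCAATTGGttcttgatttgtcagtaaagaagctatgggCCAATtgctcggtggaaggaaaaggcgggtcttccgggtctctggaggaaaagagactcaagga
Trap1a: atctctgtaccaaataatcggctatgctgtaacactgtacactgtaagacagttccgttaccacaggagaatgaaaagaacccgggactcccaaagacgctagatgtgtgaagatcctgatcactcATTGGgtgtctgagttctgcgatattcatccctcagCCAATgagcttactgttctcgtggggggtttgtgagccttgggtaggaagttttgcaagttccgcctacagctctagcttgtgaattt
Mageb16: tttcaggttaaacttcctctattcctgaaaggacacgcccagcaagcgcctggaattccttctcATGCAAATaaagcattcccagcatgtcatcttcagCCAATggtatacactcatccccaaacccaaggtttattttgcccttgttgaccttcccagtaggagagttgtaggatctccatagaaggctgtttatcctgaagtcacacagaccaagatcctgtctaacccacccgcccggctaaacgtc
Tpbpa: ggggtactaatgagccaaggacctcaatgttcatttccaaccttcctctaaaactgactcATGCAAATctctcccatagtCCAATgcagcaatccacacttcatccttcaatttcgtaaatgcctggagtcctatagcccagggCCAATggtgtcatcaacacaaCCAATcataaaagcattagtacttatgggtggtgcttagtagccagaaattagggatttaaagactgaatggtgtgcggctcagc
The octamer, the letters that POU factors such as OCT4 are known to bind, was in Mageb16, 186 bases before the start, and in Tpbpa, 190 bases before it. Of 32851 windows of this length in the same table, 1.60% held it. Motif and genes were picked with these sequences in view, so that share is background and not a test. CCAAT was in all 4 windows shown and in 33.9% of all windows. Rhox5 had it at 102, 99 and 64 bases before the start, the first pair overlapping on opposite strands, Trap1a at 124 and 88, Mageb16 at 151 and Tpbpa at 170, 106 and 85. Ascl2 had it at 99, 90 and 67, and neither of 2 Elf5 windows held either motif. The E-box CANNTG, where N is any base, was also searched and is not marked. It was in 66.2% of all windows and, of the 4 shown, in Rhox5 only. Promoters of 6 of the 7 genes were matched, and Prl8a2 was not.

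The neighbours of these genes in their families did not all go the same way. In the Rhox family, 3 of 3 tested fell at the first step and 2 at the second, Rhox5 among them. Rhox6, a homeobox gene of the placenta, gave 764, 1067 and 909 at E7.5 and 96.3, 113 and 82.3 at E8.5, a change of -2.93 ± 0.27, and changed by -1.53 ± 0.27 at the second. Rhox9 changed by -2.31 ± 0.37 at the first step. In the Mage family, Mageb16 was the only one of 7 tested to fall at the first step and 3 rose, where 6.27% of all genes rose. These were Maged1 (1.03 ± 0.07), Maged2 (1.18 ± 0.11) and Mageh1 (1.15 ± 0.11), and after quantile normalization 1 gene of the family rose.

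**Figure D2:**
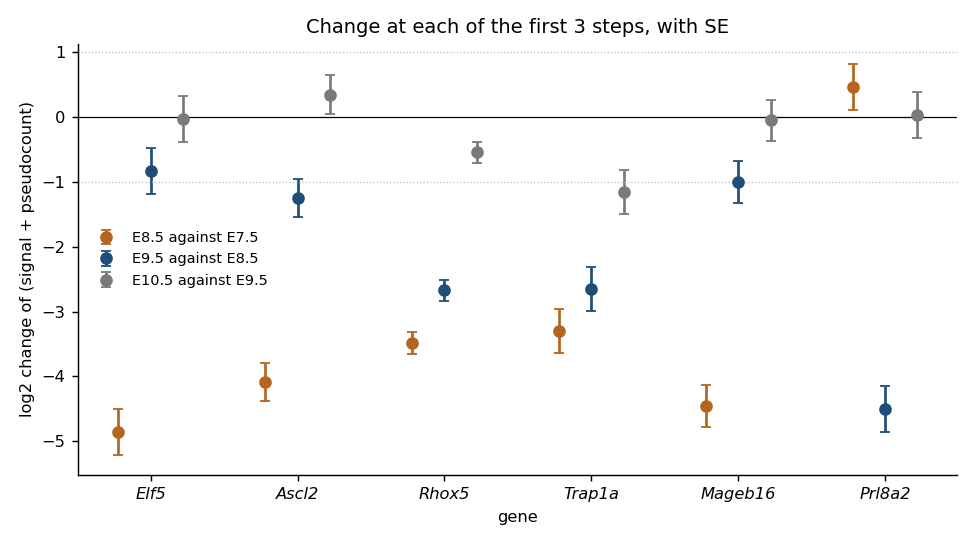
Change of log2(signal + 25.9) with its SE for the 6 genes tested, from E7.5 to E8.5 (orange), E8.5 to E9.5 (blue) and E9.5 to E10.5 (grey), with dotted lines at 2-fold. Elf5, Ascl2 and Mageb16 have most of their fall in orange, Rhox5 and Trap1a in orange and blue, and Prl8a2 in blue.

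Whether the second step differed from the first was tested in the same fit, and 17.4% of all genes differed there, in either direction and with no minimum fold. It can be read only where a gene was still far above the pseudocount at E8.5. From there a signal of 0 would have been a further fall of at most 1.73 for Elf5, 1.82 for Ascl2 and 1.95 for Mageb16, less than each had fallen already, so a smaller second step of these 3 was fixed by the scale and is not given as a result. For Prl8a2 the second step minus the first was -4.96 ± 0.62 (limma adjusted p = 8.9e-06). For Rhox5 the difference was 0.81 ± 0.28 (limma adjusted p = 0.054) and for Trap1a 0.65 ± 0.58 (limma adjusted p = 0.52), neither past the threshold in this fit. Rhox5 was close to it and passed in 8 alternatives: without E9.5 replicate 1 (0.99, adjusted p = 0.011), without E9.5 replicate 2 (0.89, adjusted p = 0.044), after quantile normalization (0.92, adjusted p = 0.015), after scaling by the 75th percentile (adjusted p = 0.045), with the larger pseudocount (1.07, adjusted p = 0.0014), with the stricter filter (adjusted p = 0.047), with a gene's probe sets averaged (adjusted p = 0.046) and with the replicate block (adjusted p = 0.043). Trap1a passed with the larger pseudocount (1.24, adjusted p = 0.0053). The rest of the 19 alternatives run for each gene did not pass. Over all 19 the difference ran from 0.55 to 1.07 for Rhox5 (limma adjusted p up to 0.19). For Trap1a it ran from 0.22 to 1.24 (limma adjusted p up to 0.87).

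The visceral endoderm, the yolk sac's absorptive layer, has genes that moved beside Rhox5 and Trap1a. Of 15 such genes, 14 fell at the first step and 14 at the second. Spink1, a trypsin inhibitor, gave 13085, 14970 and 17663 at E7.5, 3489, 3202 and 3513 at E8.5, and 130, 147 and 243 at E9.5. Amn, the membrane partner of the receptor cubilin, changed by -2.99 ± 0.25 and then -3.04 ± 0.25. The summed signal of the 15 was 141480 to 161148 at E7.5, 41124 to 47182 at E8.5 and 4936 to 11361 at E9.5, and all 15 were above the array median at E8.5. At E8.5 the median of the 15 was 22.3% of a gene's own E7.5 mean, with Rhox5 at 8.80% and Trap1a at 9.63%. Their part in the result was not tested.

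At E9.5 both genes were highest on replicate 3. Rhox5 gave 346 there against 174 and 204, and Trap1a 129 against 38.1 and 37.6. The same array was highest for all 13 visceral endoderm genes above the array median at that stage, as for 29.2% of all genes. It was at least 2-fold over the lowest for 10 of the 13, against 1.81% of all genes. Apoc2, an apolipoprotein gene, gave 47.1, 32.4 and 242. The order was not limited to that list. Replicate 3 was also highest for Mageb16, Prl8a2, Rhox6 and the 3 labyrinth genes above the median. Elf5 was highest on replicate 1 and Ascl2 on replicate 2. Without E9.5 replicate 3 the second step was -2.94 for Rhox5 and -3.08 for Trap1a.

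**Figure D3:**
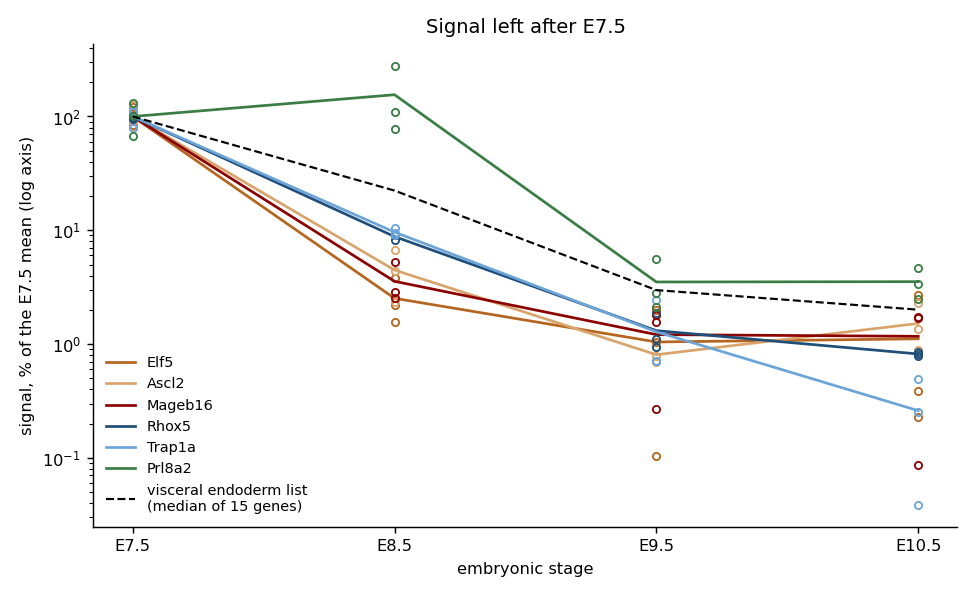
Signal as a percent of the E7.5 mean (log axis) at the 4 stages up to E10.5 for 6 genes, with circles for arrays, lines through the means and a dashed line for the median of 15 visceral endoderm genes. At E8.5 Elf5, Mageb16, Ascl2, Rhox5 and Trap1a lie between 2.52% and 9.63%, the dashed line at 22.3% and Prl8a2 at 155%.

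Prl8a2 was the exception at the first step. It gave 648, 1263 and 958 at E7.5 and 2661, 747 and 1050 at E8.5, overlapping ranges with a change of 0.46 ± 0.36 that was not called (limma adjusted p = 0.34). Without E8.5 replicate 1, its highest array, the change was -0.057 (limma adjusted p = 0.91), and over the arrays left out in turn it ran up to 0.84. Its log2 SD at E8.5 was 0.93, where the median gene had 0.17 and the 95th percentile was 0.66. At E9.5 it gave 20.4, 27.1 and 53.2, and at E10.5 24.0, 44.9 and 32.4. Every array of E9.5 was below every array of E8.5, and the change of -4.50 ± 0.36 (SE; limma adjusted p = 2.4e-08) was the largest fall of all genes tested at that step. Without E8.5 replicate 1 it was still called, at -3.98.

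Other decidual genes did not share that fall as a group. Of 10 listed, 7 were tested: 0 fell and 3 rose at the first step, Cryab (1.86 ± 0.15), Hand2 (1.41 ± 0.09) and Wnt4 (1.14 ± 0.15), genes also used in embryonic muscle, heart and kidney. At the second step Bmp2 fell, while Hoxa10 (1.11 ± 0.26) and Hoxa11 (1.15 ± 0.17), genes of the hind part of the embryo too, rose, where 2.49% of all genes rose. Bmp2, a signalling gene, was not called without E8.5 replicate 2, E8.5 replicate 3, E9.5 replicate 1 or E9.5 replicate 3, and without E8.5 replicate 2 only 1 gene of the list rose. Prl3c1 and Prl6a1, prolactin-family genes of the decidua, were too dim to be tested. Prl6a1 gave 14.7, 172 and 66.1 at E7.5, with replicate 2 again the highest. Of 9 uterine natural killer cell genes 1 was tested and 0 were called at either step, and their summed signal was 196 to 227 at E7.5 and 268 to 388 at E8.5, with no gene above the median on every array. Of the decidual hormone genes, Prl8a2 alone was tested.

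Tpbpa was close to background at every stage. Its probe set with the highest mean gave 16.6, 101 and 32.1 at E7.5 and 26.1, 14.3 and 21.1 at E8.5, overlapping ranges. From E9.5 to E18.5 no array gave more than 28.7. Another of its probe sets gave 22.4, 115 and 55.1 at E7.5, again highest on replicate 2, and the last one 15.9, 4.04 and 4.42. The one with the highest mean may match related transcripts, as its suffix _x_at marks. With the filter on dim genes left out, the first step was -0.55 ± 0.37 (limma adjusted p = 0.30 over 18193 genes). E10.5 against E7.5 was -0.95 ± 0.37, under 2-fold (limma adjusted p = 0.040). Phlda2, an imprinted gene active in the same cells and beyond, was the only one of 3 genes tested in their list to fall. It gave 25814, 22525 and 22685 at E7.5, 5742, 5520 and 5825 at E8.5, and 590, 650 and 787 at E9.5.

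Genes of trophoblast giant cells differed widely among the 3 pools of E7.5. Of 5 tested, 4 fell at the first step and 0 at the second: Prl4a1, Prl5a1 and Prl7a1, prolactin-family hormone genes, and Hand1, which giant cells need and which heart and allantois also use. The hormone genes passed the filter on dim genes through their E7.5 arrays. At E8.5 Prl5a1 gave 28.6 or less and Prl7a1 59.4 or less. For these hormone genes a fall at the first step alone was thus largely set by the filter and the scale. Prl4a1 gave 314, 6943 and 590 at E7.5 and 80.8 or less at E8.5, a change of -4.14 ± 0.73. All E7.5 arrays were above all E8.5 arrays, yet replicate 2 was 22.1 times replicate 1. The 5 genes were lowest on replicate 1 and highest on replicate 2, an order found in 18.1% of 11203 genes above the median there. For 4 of the 5 the spread was at least 2-fold, against 2.15% of all genes with that order and spread. With E7.5 replicate 2 left out the count that fell was also 4, and with only genes above the 75th percentile tested it was 2. Cts7, a placental cathepsin and the only one of 8 tested, gave 98.6, 517 and 345 at E7.5, and Plac1, a trophoblast gene of the labyrinth list, 2525, 7673 and 4338. Both fell at the first step, to 28.5 or less and to 623, 561 and 620. Cts7 too passed the filter through its E7.5 arrays.

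The prolactin family shares Prl4a1, Prl5a1 and Prl7a1 with the giant cell list, so its order is not a separate result. Of 17 with a probe set, 5 were tested, all lowest on replicate 1 and highest on replicate 2 at E7.5, with a median ratio of highest to lowest of 14.9. Prl8a2 belongs to these 5, with the smallest ratio, 1.95. The other 4, Prl2a1, Prl4a1, Prl5a1 and Prl7a1, fell at the first step, and Prl8a2 alone fell at the second. At E8.5 Prl8a2 was the only 1 of the 5 above the median, so which step the others fell at was largely set by the filter. With only genes above the 75th percentile tested, 1 of the family fell at the first step.

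Elf5, Ascl2, Rhox5, Trap1a and Mageb16 differed less among these pools. The highest E7.5 array over the lowest was 1.05 for Mageb16, 1.15 for Rhox5, 1.40 for Trap1a, 1.45 for Elf5 and 1.56 for Ascl2, and 6.07 for Tpbpa. By the probe sets with the highest mean, Elf5, Rhox5 and Mageb16 were highest on replicate 1, the array where the giant cell genes were lowest. Replicate 1 was also the highest for 41.9% of all genes above the median. Ascl2, Trap1a, Tpbpa and Prl8a2 were highest on replicate 2. Trap1a and Prl8a2, 2 of the 6 members above the median, had the full order of the giant cell genes in these probe sets. The other Elf5 probe set had it too, with 166, 290 and 211. So did the other 2 of Ascl2, with 1322, 2016 and 1693 and with 600, 1251 and 927, the last a ratio of 2.08. Which members had that order thus depends on the probe set. The summed signal of the 6 giant cell genes with a probe set was 1354 to 10531 at E7.5 and 557 to 591 at E8.5. Single bright probe sets weigh most in that sum. Prl4a1 gave up to 6943 at E7.5, and Hand1 gave 307 to 395 at E8.5. The 13 stem cell genes had a median ratio of highest to lowest of 1.48 at E7.5, where all genes had 1.25, and 2 of the 13 had a spread of at least 2-fold.

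**Figure D4:**
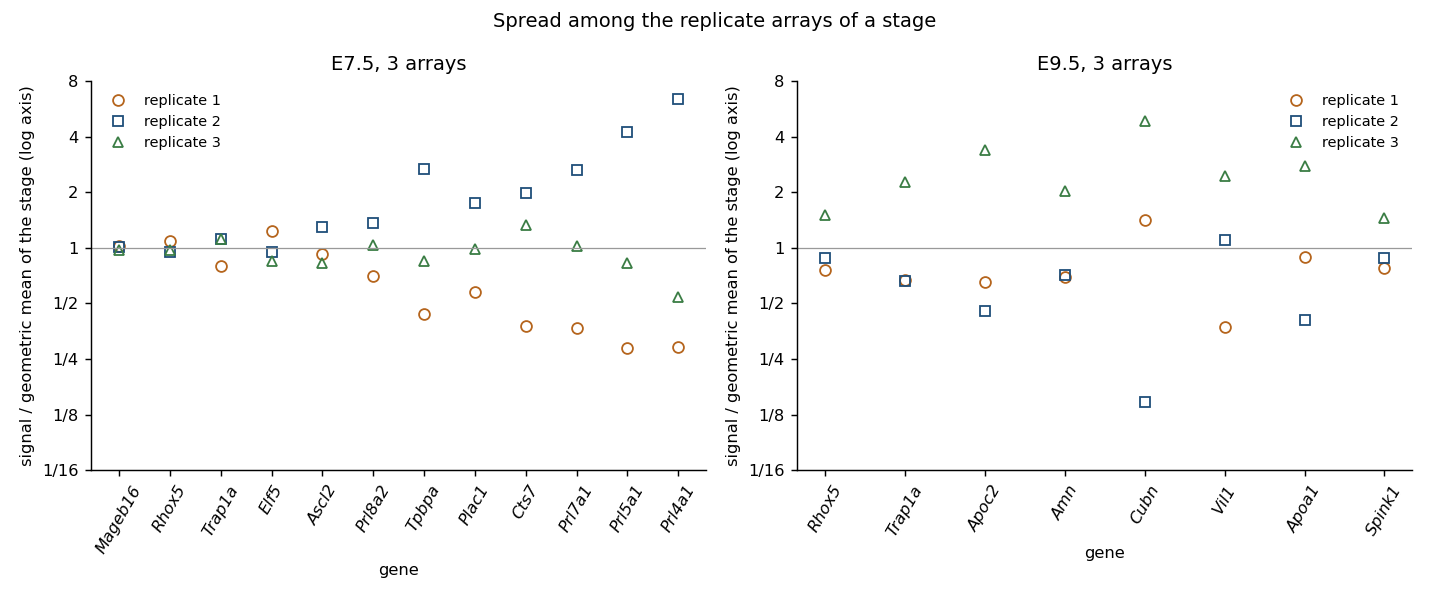
Signal of each array over the geometric mean of its stage (log axis) for the 7 genes and 5 placental genes at E7.5 (left), and for Rhox5, Trap1a and 6 visceral endoderm genes at E9.5 (right), with a symbol for each replicate. At E7.5 the ratio of highest to lowest runs from 1.05 for Mageb16 to 22.1 for Prl4a1, and at E9.5 replicate 3 is highest for all 8 genes.

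Genes of the epiblast, the layer that gives rise to the fetus, fell at the first step as well. Of 10 listed, 7 fell at the first step and 4 at the second. Pou5f1, which encodes OCT4, gave 3692, 2483 and 2120 at E7.5, 189, 140 and 208 at E8.5, and 17.9, 37.5 and 10.7 at E9.5. Zfp42, a zinc-finger gene of pluripotent cells, changed by -4.08 ± 0.30 at the first step and Nanog by -3.41 ± 0.34. Of 8 parietal endoderm genes 2 fell at the first step, Srgn (-2.63 ± 0.21) and Pth1r (-1.05 ± 0.13), the second of them under 2-fold without E7.5 replicate 1 or without E8.5 replicate 3. Of 5 genes of allantois and extraembryonic mesoderm 1 fell, Hand1, and 1 rose, the adhesion gene Vcam1 (1.95 ± 0.15).

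After E10.5 the array set changed, and the values across that border stand beside its shift. From E10.5 to E12.5, 2 of 6 members rose, against 10.6% of all genes: Elf5 to 97.5 and 85.4 (1.31 ± 0.40, limma adjusted p = 0.010) and Prl8a2 from 24.0, 44.9 and 32.4 to 103 and 114 (1.18 ± 0.40, limma adjusted p = 0.020). In signal, neither group overlapped E10.5. By percentile among the signals of its array, Elf5 did, with 47.0 on E10.5 replicate 1 against 40.6 and 38.2 at E12.5. Prl8a2 did not, with at most 34.6 at E10.5 and then 41.5 and 43.9. The median of all genes moved by 0.12 there, and by -0.11 after quantile normalization, when neither gene was called. Elf5 was not called without E10.5 replicate 3 (1.02, adjusted p = 0.051) or E12.5 replicate 1 (1.24, adjusted p = 0.072). The other Elf5 probe set changed by 0.25. Prl8a2 was not called without E10.5 replicate 1 (1.06, adjusted p = 0.062), E12.5 replicate 1 (1.24, adjusted p = 0.074) or E12.5 replicate 2 (1.12, adjusted p = 0.10).

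Within the later arrays no member was called at any step in the limma fit of all stages. At E14.5 against E12.5 this was 0 of 6 with 3.65% of all genes called and 1 member, Rhox5, at an unadjusted p below 0.05. At E16.5 against E14.5 it was 0 of 6 with 3.78% of all genes called and 2 members below 0.05 unadjusted, and at E18.5 against E16.5 0 of 6 with 4.29% called and 1 member, Mageb16, below 0.05. The 2 were Elf5 and Ascl2. Of the 14044 genes tested, 3203, 3195 and 3819 were below 0.05 unadjusted at these steps, in order of stage. Such p-values were thus common among all genes, and these counts do not set the members apart. Elf5, which glandular epithelia also make, gave 131 and 134 at E14.5, 396 and 360 at E16.5, and 276 and 315 at E18.5. The change into E16.5 was 1.35 ± 0.43 (limma adjusted p = 0.054), with no overlap, and from there both stages were above the array median. Ascl2 gave 49.6 and 19.1 at E14.5 and 93.5 and 108 at E16.5, a change of 1.12 ± 0.36 (limma adjusted p = 0.054). Both were close to the threshold and rose in a fit of those stages alone (limma adjusted p = 0.00055 for Elf5 and 0.039 for Ascl2) and with the stricter filter (0.045 and 0.044). Elf5 also rose with the larger pseudocount (1.03, adjusted p = 0.0020) and Ascl2 without the trend (adjusted p = 0.049). Both rose with the replicate block. The other alternatives that kept all arrays gave no call. With an array left out the change was 1.28 to 1.41 for Elf5 and 0.75 to 1.49 for Ascl2. Over all 15 alternatives the smallest change was 0.86 for Elf5 and 0.58 for Ascl2, both under 2-fold. The other Elf5 probe set changed by 0.38 at this step and stayed below the array median. The other 2 of Ascl2 changed by 0.38 and 0.54. Rhox5, Trap1a, Mageb16 and Prl8a2 were below the array median on every array from E12.5 on.

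E7.5 had the highest mean of Elf5, Ascl2, Rhox5, Trap1a and Mageb16, and for Prl8a2 E8.5 and E7.5, which overlapped, were at the top. E8.5 and then E9.5 followed for Rhox5 and Trap1a. For Elf5, E16.5, at 378 ± 25.5 (SD, n = 2), and E18.5, at 295 ± 27.2 (SD, n = 2), came next, ahead of E8.5 at 62.7 ± 28.6 (SD, n = 3). A later stage also came next for Ascl2, with E16.5 at a mean of 101, and for Mageb16, with E14.5 at a mean of 103, and these overlapped their E8.5 arrays. In the other 2 Ascl2 probe sets E8.5 came next, with means of 36.9 and 37.8 against 20.6 and 31.0 at E16.5. Early and late stages are from different array sets.

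Which genes were most like each member was read from Pearson's r of log2 values over the 12 arrays up to E10.5, a description in which all genes share the arrays and the 4 stages. For Elf5 the nearest were Niban1 (r = 0.987), Glrx (0.984) and Klf5 (0.984), a transcription factor gene of early trophoblast. For Ascl2 they were Glrx (0.991), Tmem51 (0.990) and Pim2 (0.989). Rhox5 was nearest to Cldn7, Rnf128 and Tmem150a (each 0.996). Trap1a was nearest to the visceral endoderm gene Amn (0.994), with Rhox5 itself next (0.992). Mageb16 had Slc66a1 (0.990), Tex19.1 (0.988) and Myo6 (0.988). Prl8a2 had Cyp26a1, a retinoic acid-degrading enzyme gene (0.962), Cmtm8 (0.949) and Dkk1, a WNT inhibitor gene (0.948). Tpbpa had none as near, with Serpinb9b and Frk first (each 0.852). Between members, r was 0.978 for Elf5 and Ascl2, 0.974 for Ascl2 and Mageb16, and 0.575 for Elf5 and Prl8a2.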

How the data were processed

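The deposited values are of unit intensity: 1 signal per probe set and array on a linear scale, which the authors computed with MAS5, per the submitters' processing notes. Its version and settings are not given in the sources used here. Without the lowest and highest 2% of values every array had a mean of 500.0, so the authors had scaled the arrays, and no further normalization was applied. The number of arrays limits the precision.

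Of 45101 probe sets, 64 were controls and 34945 carried a single gene symbol (34741 matched a RefSeq gene identifier, 0 symbols differed). The probe set with the highest mean log2 value stood for a gene. The pseudocount, 25.9, is the 25th percentile of an array (median over the 20). Genes above the array median on at least 2 arrays were tested, 14044 of 18193. A linear model of stage over all arrays was fitted with limma 3.58.1 (R 4.3.3; lmFit and eBayes with a trend; 12 residual degrees of freedom), and two-sided p-values of each of 9 comparisons were adjusted by Benjamini-Hochberg over all 14044 genes. Calls needed an adjusted p below 0.05 and at least 2-fold, except for the difference between steps, which had no minimum fold. P-values rest on the spread between pooled samples.

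The members, gene lists and alternatives were chosen with earlier results of these data known. Named genes of a list were those called with the largest changes at a step, up to 4 of them at the first and 2 at the second. Likeness was ranked by Pearson's r over the genes tested, 3 per member. Bmp2 and the untested Prl3c1 and Prl6a1 were named after their values were seen. The alternatives tried were each array left out in turn, the replicate number as a block, the compared stages alone, no trend, no minimum fold, a pseudocount 4 times larger or smaller, the filter dropped or set at the 75th percentile, a gene's probe sets averaged, and quantile or 75th-percentile scaling. The fit was also tested on simulated data. Figures were drawn with matplotlib 3.10.9.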

Additional observations from a re-analysis of the deposited data

How the results depend on the processing

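The counts of members called at E8.5 against E7.5 (5) and at E10.5 against E7.5 (6) kept their size in every alternative run, as did the calls of Rhox5, Trap1a and Prl8a2 at E9.5 against E8.5. Of 516 changes of single members under an alternative, 472 kept direction and call, 24 lost the call, 19 gained it and 1 reversed. The reversed one is Prl8a2 at E8.5 against E7.5 without E8.5 replicate 1 (-0.057; up to 0.84 over the arrays left out). Of 952 counts of list genes, 893 stayed within 1.5 times and 59 moved. At E9.5 against E8.5, 3 members were called with the larger pseudocount, and 3 to 5 with an array left out. At E10.5 against E9.5 it was 0 with the larger pseudocount, 0 with those stages alone, 2 with no minimum fold, and 0 to 1 with an array left out. At E12.5 against E10.5 it was 0 after quantile normalization, 1 after scaling by the 75th percentile, 0 with the larger pseudocount, 1 with the mean of all probe sets, and 0 to 3 with an array left out. At E16.5 against E14.5 it was 1 with the larger pseudocount, 2 with the filter at the 75th percentile, 2 with the replicate block, 1 without trend and 2 with those stages alone. The cause was not tested. The replicate numbers share only a number: over the comparisons, same-numbered arrays had deviations correlated by -0.046 to 0.28, by 0.16, 0.063 and 0.036 for E8.5 and E7.5, and by 0.13 for E16.5 and E14.5, which have only 2 pairs. There the block gave Elf5 an adjusted p of 0.024 and Ascl2 one of 0.046, and it moved no other count of members past 1.5 times. Scaling moved the median of all genes at E12.5 against E10.5 from 0.12 to -0.11. Dim signals, as of Tpbpa, limit what can be ordered.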
